A study of Mus musculus with 2 samples.

Results

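The miR-106b-25 and miR-106a-363 clusters are the 2 mouse paralogs of the miR-17-92 cluster, and their hairpins were followed in microRNA sequencing of C2C12 myocytes. The members were taken by gene name from the GENCODE M21 annotation. The rule used no measured value, although the members were chosen with earlier results of these data known. Mir106b, Mir93 and Mir25 lie inside the gene Mcm7, and Mir106a, Mir18b, Mir20b, Mir19b-2, Mir92-2 and Mir363 lie together on the X chromosome. All 9 names were present among the 2202 microRNA genes of the deposited tables. C2C12 is an established myoblast line from crush-injured thigh muscle of C3H mice. The labels give both libraries as myocytes of this line after 72 h of differentiation, with no genetic change, agent or untreated control named, so the series holds 1 group with biological replicates 1 and 2 and no comparison between conditions was possible. Differentiated C2C12 cultures are known to keep some undifferentiated mononuclear cells, whose share was not measured.

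The miR-17-92 cluster and its paralogs are polycistronic, which means that several hairpins are cut from a single transcript. Their mature microRNAs fall into 4 seed families, named after miR-17, miR-18, miR-19 and miR-25, and members of a family are expected to recognise largely the same messenger RNAs because the seed (bases 2 to 8) leads target pairing. The family is known for its ties to the cell cycle. Mcm7, the host of Mir106b, Mir93 and Mir25, encodes a subunit of the replicative helicase and is a target of E2F factors, while muscle differentiation takes cells out of the cycle. In human cells miR-106b and miR-93 are known to repress the cell cycle inhibitor gene CDKN1A, and miR-25 the pro-apoptotic gene BCL2L11. The X-linked cluster was known early as a site of retroviral integration in mouse lymphomas and is described as silent or very low in most adult tissues.

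The mature arms that give each family its seed are shown because their likeness sets which hairpins a read can be told apart from. All 9 members had an entry in the RefSeq microRNA table (GRCm38.p6), and the seed is in capitals. The miR-17 family was represented by 4 members.
miR-106b-5p (Mir106b): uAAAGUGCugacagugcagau
miR-93-5p (Mir93): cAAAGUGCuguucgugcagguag
miR-106a-5p (Mir106a): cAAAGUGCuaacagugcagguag
miR-20b-5p (Mir20b): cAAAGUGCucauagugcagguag
miR-17-5p (Mir17, chromosome 14): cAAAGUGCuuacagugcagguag
miR-20a-5p (Mir20a, chromosome 14): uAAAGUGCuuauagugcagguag
The miR-25 family was represented by 3 members.
miR-25-3p (Mir25): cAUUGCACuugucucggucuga
miR-92a-3p (Mir92-2, and Mir92-1 on chromosome 14): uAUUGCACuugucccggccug
miR-363-3p (Mir363): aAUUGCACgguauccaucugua
The miR-18 and miR-19 families each had 1 member, both on the X chromosome.
miR-18b-5p (Mir18b): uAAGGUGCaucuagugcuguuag
miR-18a-5p (Mir18, chromosome 14): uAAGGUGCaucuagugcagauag
miR-19b-3p (Mir19b-2, and Mir19b-1 on chromosome 14): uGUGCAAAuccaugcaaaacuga

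Compared base by base from the 5′ end, miR-106a-5p differed from miR-17-5p by 1 base (A10U, with the miR-106a-5p base first), and miR-20b-5p differed from miR-20a-5p by 2 bases (C1U and C10U). Within the miR-17 family, the arms of the Mcm7 cluster stood further from their nearest relatives than the other arms did. The arm miR-93-5p differed from the others by 3 to 5 bases, and miR-106b-5p by 3 to 5 over the 21 bases that both arms of each pair have. miR-18b-5p differed from miR-18a-5p at 2 positions (U18A and U20A). miR-25-3p differed from miR-92a-3p by 3 bases (C1U, U14C and U18C). miR-363-3p shared the seed, and 13 of its bases differed from miR-25-3p in this count, which allows no gaps. A shift of 1 base after the seed would line up more of them, so the count overstates how unlike the arms are. The mature arms of Mir19b-2 and Mir92-2 were identical to those of Mir19b-1 and Mir92-1 of the chromosome 14 cluster.

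**Figure D1:**
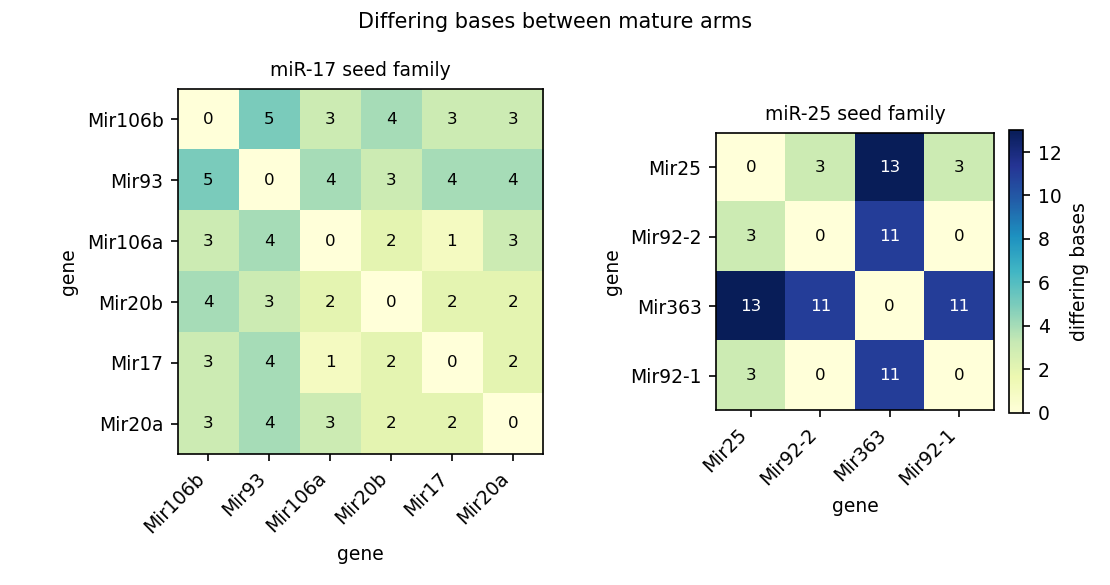
Number of differing bases between the mature arms of each pair of genes (axes: genes; colour and number: differing bases, counted position by position from the 5′ end over the shorter arm), for the miR-17 family (left) and the miR-25 family (right). Mir106a and Mir17 stand 1 base apart and Mir92-2 and Mir92-1 are identical. Mir363 is 11 to 13 bases from the rest of its family in this count, which allows no gaps.

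The Mcm7 cluster spans 498 bases of the minus strand of chromosome 5 in mm10 (GRCm38). In the principal Mcm7 transcript, which has 15 exons, all 3 hairpins lie in intron 13, in the order Mir106b (ENSMUSG00000065514.1; 138165737 to 138165818), Mir93 (ENSMUSG00000065527.1; 138165523 to 138165610) and Mir25 (ENSMUSG00000065394.1; 138165321 to 138165404). In a shorter annotated Mcm7 transcript with a retained intron, Mir93 and Mir25 lie in exon 1. The X-linked cluster spans 875 bases of the minus strand of the X chromosome, from Mir106a (ENSMUSG00000065456.1; 52742503 to 52742567) through Mir18b (ENSMUSG00000077111.2; 52742331 to 52742413), Mir20b (ENSMUSG00000076041.1; 52742113 to 52742192), Mir19b-2 (ENSMUSG00000065473.1; 52741983 to 52742066) and Mir92-2 (ENSMUSG00000065613.1; 52741838 to 52741928) to Mir363 (ENSMUSG00000070106.1; 52741693 to 52741767). Mir106a overlaps the last exon of the long noncoding RNA gene Kis2 by at most 5 bases, and the other X-linked hairpins lie beyond the end of its annotated transcripts. The clusters differed in base composition: the Mcm7 hairpins had 55.7% to 63.1% G and C, the X-linked hairpins 38.1% to 47.3% and the Mir17hg hairpins 43.7% to 47.5%, beside a median of 50.8% over all annotated hairpins.

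The tables gave 7581366 sense counts to microRNA genes in replicate 1 and 9865298 in replicate 2. Levels are in CPM (counts per 1000000 of these), on which scale 3 counts, taken as the upper limit behind a 0, come to 0.396 CPM in replicate 1 and 0.304 in replicate 2. Each count is of a whole hairpin, with its 5p and 3p arms together. The muscle label was met, since 9 skeletal muscle microRNA genes summed to 35.5% of replicate 1 and 42.8% of replicate 2. Mir206 was far ahead, with 340841 and 416794 CPM. Others of this list had few uniquely assigned counts: Mir1a-1, Mir1a-2, Mir133a-1 and Mir133a-2 stood between 1.01 and 4.22 CPM. Any read that fits both copies of such a pair would be missing here. These values may thus be too low and do not show that the mature microRNAs were scarce. Neither Mir133a gene had 10 or more counts in both libraries. Beside the muscle genes, 9 measured genes of pluripotent cells, in which relatives of the miR-17 seed are abundant, had 2 and 4 counts in all. The endothelial Mir126a stood at 217 CPM in replicate 1 and 42.9 in replicate 2, and 5 blood cell genes summed to 105 and 183 CPM. Most of that sum was Mir142, with 89.0 and 178 CPM. Mir150 was also higher in replicate 2, while Mir451a, Mir144 and Mir223 were higher in replicate 1.

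The Mcm7 cluster was well expressed in these myocytes. Mir93 had 18803 counts (2480 CPM) in replicate 1 and 19952 counts (2022 CPM) in replicate 2. Mir106b had 15955 counts (2104 CPM) and 12679 counts (1285 CPM). Mir93 thus had the most uniquely assigned counts of the 9 members in both libraries, with ranks 37 and 34 among all microRNA genes, and Mir106b followed at ranks 43 and 53. Mir25 was lower, with 2172 counts (286 CPM) in replicate 1 and 2566 counts (260 CPM) in replicate 2, and held ranks 104 and 101. The means were 2251 ± 324 CPM for Mir93, 1695 ± 579 for Mir106b and 273 ± 18.7 for Mir25 (SD, n = 2 for each), all above the median of 53.1 CPM over the detected genes. As in any bulk sample, fewer expressing cells and less RNA per cell cannot be told apart in these levels.

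The cluster as a whole had 4871 CPM in replicate 1 and 3568 CPM in replicate 2 (mean 4219 ± 922, SD, n = 2), or 0.487% and 0.357% of all assigned counts. Although the 3 hairpins lie in the same intron, their shares of the counts were not equal. Mir93 made up 50.9% of the cluster's counts in replicate 1 (95% exact binomial interval 50.4% to 51.4%) and 56.7% in replicate 2 (56.2% to 57.2%). Mir106b made up 43.2% (42.7% to 43.7%) and 36.0% (35.5% to 36.5%). Mir25 made up 5.88% (5.64% to 6.13%) and 7.29% (7.02% to 7.57%). The intervals cover counting error only, and for none of the 3 hairpins did those of the libraries overlap. The order Mir93, Mir106b, Mir25 was the same in both libraries: Mir93 was 1.18 and 1.57 times Mir106b, and 8.66 and 7.78 times Mir25. Across libraries the levels of Mir93 and Mir106b overlapped, since Mir106b in replicate 1 stood above Mir93 in replicate 2, although Mir93 was higher within each library. The levels of Mir106b and Mir25 did not overlap.

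**Figure D2:**
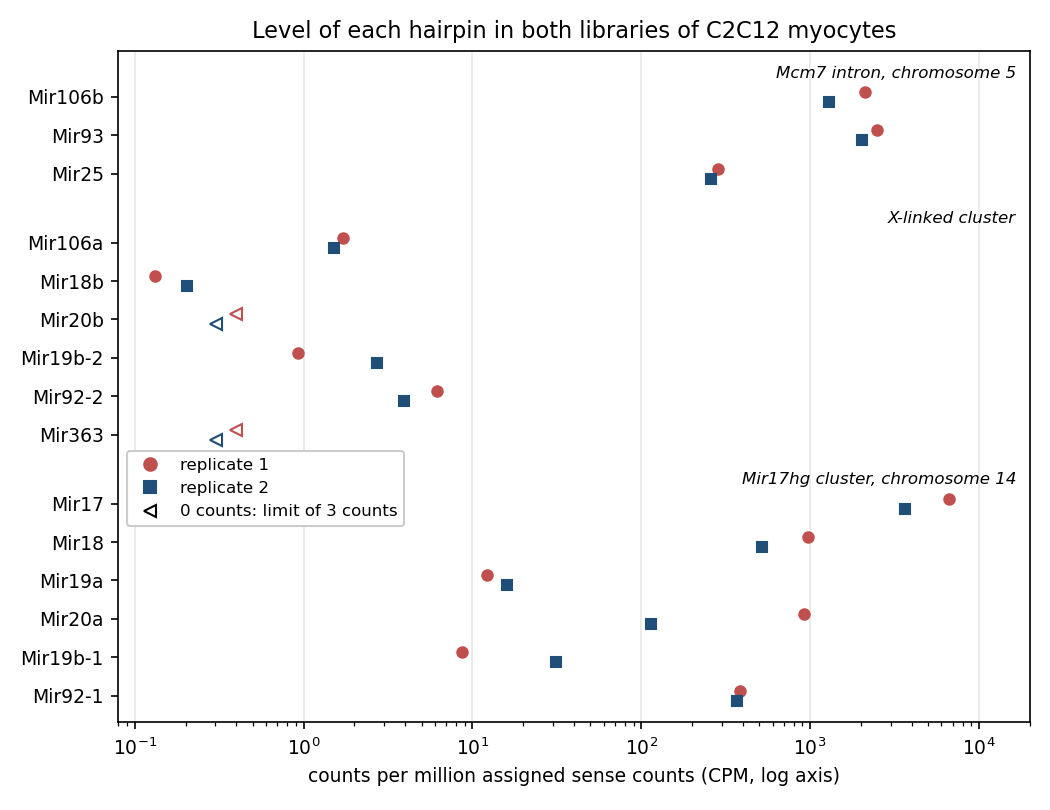
Level of each hairpin in CPM (x axis, logarithmic) in replicate 1 (circles) and replicate 2 (squares), by cluster from top to bottom; open triangles mark hairpins with 0 counts, at the level that 3 counts would have. The 3 Mcm7 hairpins lie between 260 and 2480 CPM, and the 6 X-linked hairpins lie at or below 6.20 CPM.

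The X-linked cluster had few uniquely assigned counts. Its 6 hairpins together had 68 counts in replicate 1 and 83 in replicate 2, or 8.97 and 8.41 CPM, against 36930 and 35197 counts for the Mcm7 cluster. The ratio of these counts, 543 and 424 for the Mcm7 over the X-linked cluster, is an upper value, because reads of the mature arms of Mir92-2 and Mir19b-2 that also fit chromosome 14 are not in the X-linked sum. Mir92-2 held most of these counts in replicate 1, with 47, and 39 in replicate 2 (6.20 and 3.95 CPM). Mir19b-2 had 7 and 27 counts (0.923 and 2.74 CPM). Mir106a had 13 and 15 counts (1.71 and 1.52 CPM). Mir18b had 1 count and 2 counts. Mir20b and Mir363 were at 0 in each library, and such a 0 can hide a level of up to 0.396 CPM in replicate 1 or 0.304 CPM in replicate 2.

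With detection set at 10 counts or more in each library, 5 of the 9 members were detected, beside 14.3% of all 2202 annotated microRNA genes. These were the 3 Mcm7 hairpins, Mir106a and Mir92-2. In order of mean CPM the members ran Mir93, Mir106b, Mir25, Mir92-2, Mir19b-2, Mir106a and Mir18b, with Mir20b and Mir363 last at 0. The levels of Mir92-2 and Mir19b-2 did not overlap between libraries, and those of Mir19b-2 and Mir106a did. Divided by hairpin length, a comparison added after the values were seen, the order was kept except that Mir106a stood above Mir19b-2.

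The counts of the X-linked hairpins were read beside those of their nearest relatives on chromosome 14. Mir106a, whose mature arm is 1 base from that of Mir17, had a count equal to 0.0259% of the Mir17 count in replicate 1 and 0.0416% in replicate 2. Mir18b, 2 bases from Mir18, had 0.0136% and 0.0390% of the Mir18 count. Whether misread bases in Mir17 or Mir18 reads entered these low counts was not tested, and this limits the detection of Mir106a. Mir20b had 0 counts beside 6997 and 1123 for Mir20a, from which it differs by 2 bases. Mir363, whose mature arm shares at most 10 bases in a row with any other annotated hairpin, also had 0.

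For Mir19b-2 and Mir92-2 the limit is of another kind. Their whole mature arm stands in a second hairpin, so a read of that arm alone fits more than 1 place and, in tables laid out like these, is held in the multi-mapped entry (3378438 reads in replicate 1 and 3295854 in replicate 2). The hairpins are shown with the shared mature arm in capitals. Outside it the copies differ at some bases and share shorter stretches.
Mir19b-2 (X chromosome): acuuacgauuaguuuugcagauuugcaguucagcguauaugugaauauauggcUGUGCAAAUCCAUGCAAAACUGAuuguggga
Mir19b-1 (chromosome 14): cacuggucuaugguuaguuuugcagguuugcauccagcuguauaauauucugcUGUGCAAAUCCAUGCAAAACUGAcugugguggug
Mir92-2 (X chromosome): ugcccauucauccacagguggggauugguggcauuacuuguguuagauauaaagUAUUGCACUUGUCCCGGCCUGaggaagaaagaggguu
Mir92-1 (chromosome 14): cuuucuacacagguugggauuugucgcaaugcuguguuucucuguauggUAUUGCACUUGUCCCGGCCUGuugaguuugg
Of the uniquely assigned counts, the X-linked copy had a small part in each pair: Mir19b-2 had 10.6% and 8.71% of the Mir19b-1 count, and Mir92-2 had 1.62% and 1.07% of the Mir92-1 count. The levels of miR-19b and miR-92a therefore cannot be given from these tables, and neither can their split between the chromosomes. The other 7 members share no stretch of 20 bases with another annotated hairpin.

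The seed families were then summed over the X-linked, the Mcm7 and the Mir17hg clusters, to divide the uniquely assigned counts of each by locus. In the miR-17 family, the Mcm7 cluster (Mir106b and Mir93) supplied 37.8% of the counts in replicate 1 (exact interval 37.5% to 38.1%) and 46.8% in replicate 2 (46.4% to 47.1%), against 62.2% and 53.2% from the Mir17hg cluster (Mir17 and Mir20a). The X-linked cluster supplied 0.0141% and 0.0215%. In the miR-25 family, Mir25 alone supplied 42.5% (41.1% to 43.8%) and 41.1% (39.9% to 42.3%) of the uniquely assigned counts, against 56.6% and 58.3% from Mir92-1 and 0.919% and 0.625% from Mir92-2. Since miR-92a reads that fit both copies are missing from these sums, the share of Mir25 is an upper value for this family. The Mcm7 cluster holds no hairpin of the miR-18 and miR-19 families, and there the X-linked cluster supplied 0.0136% and 0.0389% of the miR-18 counts and 4.24% and 5.44% of the miR-19 counts, with the remaining uniquely assigned counts in Mir17hg. For miR-19 these are shares of unique counts only and do not give the split of miR-19b between the loci.

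**Figure D3:**
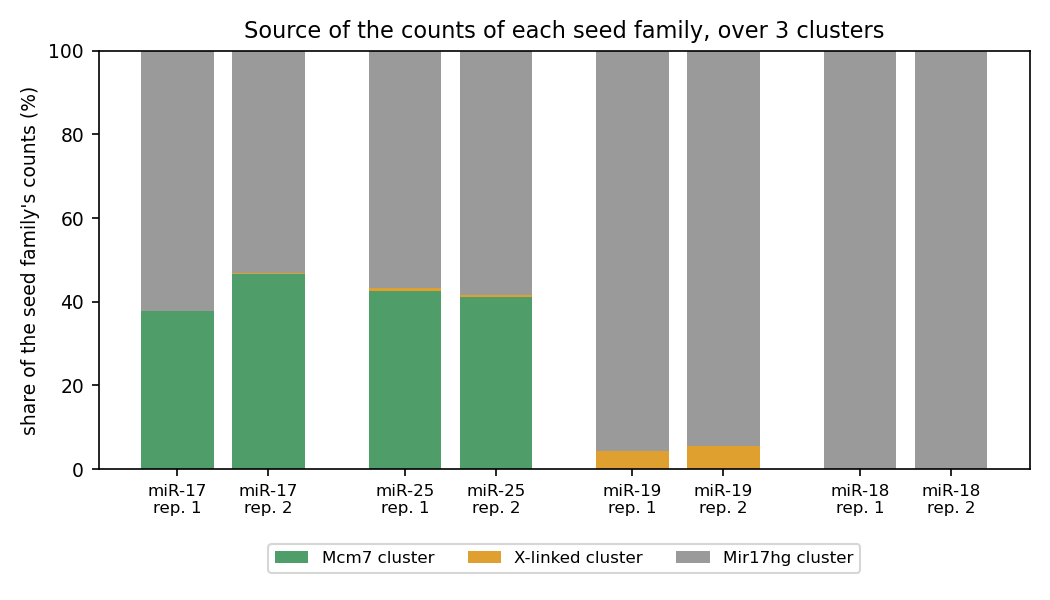
Share of each seed family's uniquely assigned counts (y axis, %) that came from the Mcm7, X-linked and Mir17hg clusters, for replicates 1 and 2 of each family. The Mcm7 cluster holds 37.8% and 46.8% of the miR-17 family and 42.5% and 41.1% of the miR-25 family, and the X-linked cluster's largest shares are 4.24% and 5.44%, in the miR-19 family.

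Summed over the 3 clusters, the miR-17 family reached 12133 CPM in replicate 1 and 7075 in replicate 2. The miR-25 family had 675 and 633 CPM of uniquely assigned counts, which are lower values for the reason given above, so that the ratios of the miR-17 to the miR-25 family, 18.0 and 11.2, are upper values. The Mcm7 cluster as a whole had 0.546 times the uniquely assigned counts of the Mir17hg cluster in replicate 1 and 0.759 times in replicate 2. These too are upper values, because miR-19b and miR-92a reads that fit both copies are missing from the Mir17hg sum. Member by member, Mir106b and Mir93 each stood below Mir17, which had 6624 and 3652 CPM and was 3.15 and 2.84 times Mir106b. Both stood above Mir20a, which had 923 and 114 CPM. Mir25 had 0.750 and 0.705 times the uniquely assigned count of Mir92-1.

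Outside these clusters 4 further annotated mouse genes carry a mature arm with a seed of the members, 3 of them the miR-25 seed. Mir32 stood at 43.1 CPM (replicate 1) and 6.79 CPM (replicate 2). Mir92b stood at 5.01 and 4.46 CPM, and both genes were below Mir25 in each library. Mir367, of the pluripotent miR-302 cluster, and Mir6383, which has the miR-17 seed, had 0 counts in both.

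The replicates were compared gene by gene with an exact binomial test, two-sided and conditioned on the sense totals, whose p-values were adjusted by Benjamini-Hochberg over the 314 detected genes (threshold 0.05). This compares the libraries, not conditions, and covers counting error only. Log2 ratios are replicate 1 over replicate 2 on log2(CPM + 1), which understates differences of low genes, while folds are ratios of CPM. All 3 Mcm7 hairpins were higher in replicate 1, whereas Mir106a and Mir92-2 did not pass, so that of 5 detected members 3 were called higher and 0 lower, beside 38.2% higher and 28.3% lower of all detected genes. Mir106b differed most, 1.64-fold (log2 ratio 0.71, exact binomial adjusted p below 1e-300). Mir93 was 1.23-fold higher (log2 ratio 0.29, exact binomial adjusted p = 1.16e-88). Mir25 was 1.10-fold higher (log2 ratio 0.14, exact binomial adjusted p = 0.00171), a call that was lost with TMM scaling (log2 ratio 0.041, exact binomial adjusted p = 0.412). Mir92-2 had a log2 ratio of 0.54 (exact binomial adjusted p = 0.0578) and Mir106a one of 0.11 (0.889). Of these members, Mir106b alone had a called ratio larger in size than the median absolute log2 ratio of 0.45 over all detected genes.

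**Figure D4:**
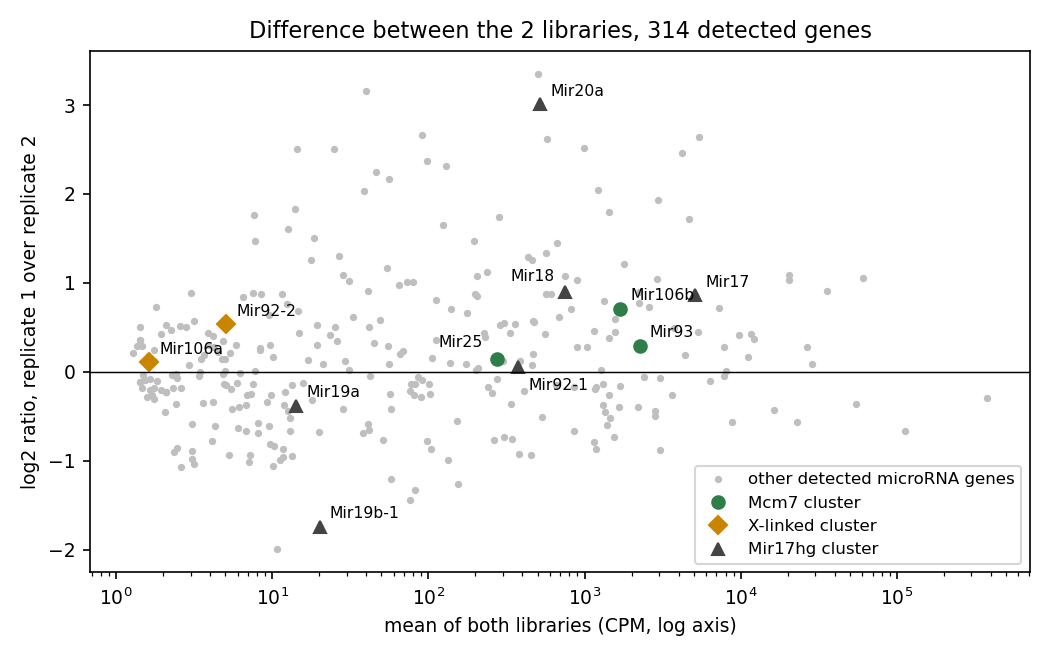
Log2 ratio of replicate 1 over replicate 2 (y axis, pseudocount of 1 CPM) against the mean of both libraries (x axis, logarithmic) for the 314 detected genes, with the clusters marked. The Mcm7 hairpins lie between 0.14 and 0.71, and the Mir17hg hairpins spread from −1.74 to 3.01.

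The log2 ratios of the 3 Mcm7 hairpins ran from 0.14 to 0.71. Among the 6 Mir17hg hairpins, 3 were called higher in replicate 1: Mir17, Mir18 and Mir20a, with log2 ratios of 0.86, 0.90 and 3.01. The 2 called lower were Mir19a at −0.38 and Mir19b-1, counted from unique reads only, at −1.74. Mir92-1, at 0.05, was not called (exact binomial adjusted p = 0.215). The Mir19a call was lost with a minimum of 1 count (exact binomial adjusted p = 0.0727). Mir106b, at 2104 and 1285 CPM, moved in the same direction as Mir17, at 6624 and 3652 CPM, and as Mir18, at 973 and 520 CPM. No test of the difference between the clusters was made, since hairpins of a transcript are not replicates. Base composition moved with the ratio over all detected genes: hairpins with more G and C tended to lower ratios (Spearman rho −0.28 over 314 genes, a description, since these share the same 2 libraries). The part of base composition, and that of the endothelial and blood cell genes, in the ratios of the members was not tested.

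By distance in log2(CPM + 1) over the 2 libraries, the genes with levels most like those of Mir106b were Mir30b (1886 and 1249 CPM) and Mir151 (1805 and 1323 CPM). For Mir93 they were Mir210 (2352 and 2448 CPM) and Mirlet7d (2825 and 1656 CPM), and for Mir25 Mir328 (266 and 282 CPM) and Mir125b-2 (315 and 288 CPM). Mir106a stood nearest to Mir126b and Mir6960, and Mir92-2 to Mir146 and Mir1953, all of them at 1.58 to 5.80 CPM. With 2 libraries, likeness in this sense is a like level and a like ratio and nothing more. Of the genes named as nearest, Mir125b-2, Mir126b and Mir146 each share a stretch of 20 bases with 1 other annotated hairpin. Reads that fit both hairpins may be missing from their levels.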

How the data were processed

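Small RNA of 2 C2C12 myocyte libraries was sequenced and deposited as whole-number counts per microRNA gene, 1 table for each library. The deposited counts had no scaling that the values show. Per the deposited notes the build was mm10 and the annotation M21, and adapters were trimmed per the labels. Which aligner and counter made them is not given in the sources used here. These tables have the layout of STAR gene counts, so counts were read as uniquely mapped reads. The sense column was used. The 4 entries that name no gene (50.6% of reads in replicate 1 and 46.5% in replicate 2) were left out of totals and tests.

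All gene identifiers matched M21, which gave names and coordinates. CPM, shares, Clopper-Pearson intervals (95%) and exact binomial tests were computed with Python 3.11.15 and scipy 1.17.1. Only the binomial test was tried on simulated data, which held counting error and no other variation between libraries. TMM factors came from edgeR 4.0.16 and size factors from DESeq2 1.42.0, as alternatives. A quasi-likelihood test was not possible with 1 library on each side. Intervals and tests cover counting error only, since no molecular identifiers are named. The labels call the libraries biological replicates of 1 line and do not say how separately the cultures were grown. Named were all members, the Mir17hg genes, genes with a member seed, the 2 genes nearest in level to each detected member, and label checks. The members, lists and alternatives were chosen with earlier results of these data known.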

Additional observations from a re-analysis of the deposited data

Results flagged for a closer look

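Reads that fit more than 1 place, which enter no gene level, numbered 3378438 in replicate 1 and 3295854 in replicate 2. They were singled out as signal outside the gene counts, and made up 22.0% and 17.9% of all reads. The mature arms of Mir19b-2 and Mir92-2 are among the sequences with more than 1 annotated place, and how many of these reads they hold is not given by the tables.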

How the results depend on the processing

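Levels moved with the denominator: over all reads, the Mcm7 cluster had a mean of 2157 CPM, the X-linked cluster 4.46, and the miR-17, miR-18 and miR-25 families 4888, 379 and 336 CPM. In the either-strand counts the X-linked cluster had 9.996 and the miR-25 family 746 CPM. The counts themselves hardly changed, with 5 antisense counts over all 9 members in replicate 1 and 0 in replicate 2. These higher values thus came from a smaller total of either-strand counts. Leaving out 1 replicate at a time gave 3568 to 4871 CPM for the Mcm7 cluster and 8.41 to 8.97 for the X-linked cluster. A minimum of 100 counts left 3 members detected, the Mcm7 hairpins. A minimum of 1 count added 1 member called lower in replicate 1 (Mir19b-2). Leaving out hairpins that share 20 bases left 76 genes called higher in replicate 1, from fewer genes tested. The Mir25 call was lost in the either-strand counts and with both scalings (log2 ratio 0.041 to 0.053). Mir92-1 changed sign without a call: −0.036 in the either-strand counts, −0.048 with TMM factors and −0.039 with DESeq2 size factors. The calls of Mir106b and Mir93 held under all alternatives run. No paired analysis was possible because there was 1 group. The counts of calls could not be recomputed with 1 library left out.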
